A study of Mus musculus with 3 samples.

Results

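The comparison described here is between cells given the higher and the lower of the study's cholesterol doses: mouse CD8 T cells kept under Tc1 cytokine conditions with 0.75 µg/ml cholesterol were set against the same kind of culture with 0.5 µg/ml. It uses 2 of the study's 3 samples. The third, CD8 T cells under the same cytokine conditions without added cholesterol, entered no difference and no filter, and its values are given only beside named results. Tc1 conditions are the cytokines that direct activated CD8 T cells towards cytotoxic, interferon-gamma-producing cells, and the study describes its CD8 T cells as stimulated through CD3 and CD28. The labels give neither the mouse strain and the number of animals nor the carrier of the cholesterol, the time of exposure or the cytokines. RNA was measured on 1 microarray per dose. There were therefore no replicates, no test and no error between samples: every difference below compares 2 libraries, and their number limits the precision.

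Cells sense membrane cholesterol in the endoplasmic reticulum. When it is low, the transcription factor SREBP-2 is escorted by SCAP to the Golgi, cut, and sent to the nucleus, where it turns on the enzymes of cholesterol synthesis; INSIG proteins and cholesterol hold it back. When oxidised sterols accumulate, LXR receptors, paired with RXR, turn on the pumps that export cholesterol. Activated T cells depend on this balance, since growth after stimulation through the antigen receptor requires new membrane, and the same cells switch to glycolysis and use interferon and cytokine signals to become killers.

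Of 19505 genes with a named probe set, 7933 were detected, meaning that at least 1 of both arrays was at or above the background level, an intensity of 100.6 (the 95th percentile of the negative control probe sets on the 0.75 µg/ml array, the higher of both). Of these, 7451 reached it on both arrays, 275 on the 0.5 µg/ml array alone and 207 on the 0.75 µg/ml array alone; the other 11572 genes were not detected. Intensities are linear, and each pair is given in the order 0.5 then 0.75 µg/ml. For a gene under background on 1 array the fold is a lower bound, computed against the background level and written as "at least". Probe sets differ in their response, so no gene's level is compared with another gene's.

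More genes were far lower at the higher dose than far higher. As measured, 25 genes (0.315% of those detected) reached 2-fold upward with the higher dose and 103 (1.30%) reached it downward. With dim values raised to the background level the counts were 12 (0.151%) and 75 (0.945%), and among genes at or above background on both arrays they were 8 and 57. Most genes lay close to equal: 3694 were higher, 4084 (51.5%) lower and 155 equal, the median log2 difference (0.75 minus 0.5 µg/ml) was -0.01, and its middle 95% ran from -0.71 to 0.47. The lower tail was the longer one. The 1015 detected positive controls showed an SD of 0.25 on the log2 scale, with 0 of them 2-fold higher and 1 lower by that much.

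The spread of the differences depended on brightness. Among the 2498 genes with a mean intensity under 200, 3.08% differed at least 2-fold, against 0.402% of the 497 genes at 1600 or above. The SD of the positive controls was 0.34 in the first of these ranges and 0.15 in the last, so a dim gene's fold is the less certain. The line at 2-fold cuts through a continuum: S100a4, an EF-hand calcium-binding protein, was at 283 and 565, just under it, and Ak1, an adenylate kinase, at 289.5 and 582, just over it. On the lower side Stat2 (581 and 289.5) was just inside and Gsn, the actin-severing protein gelsolin (266 and 133), just outside.

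**Figure D1:**
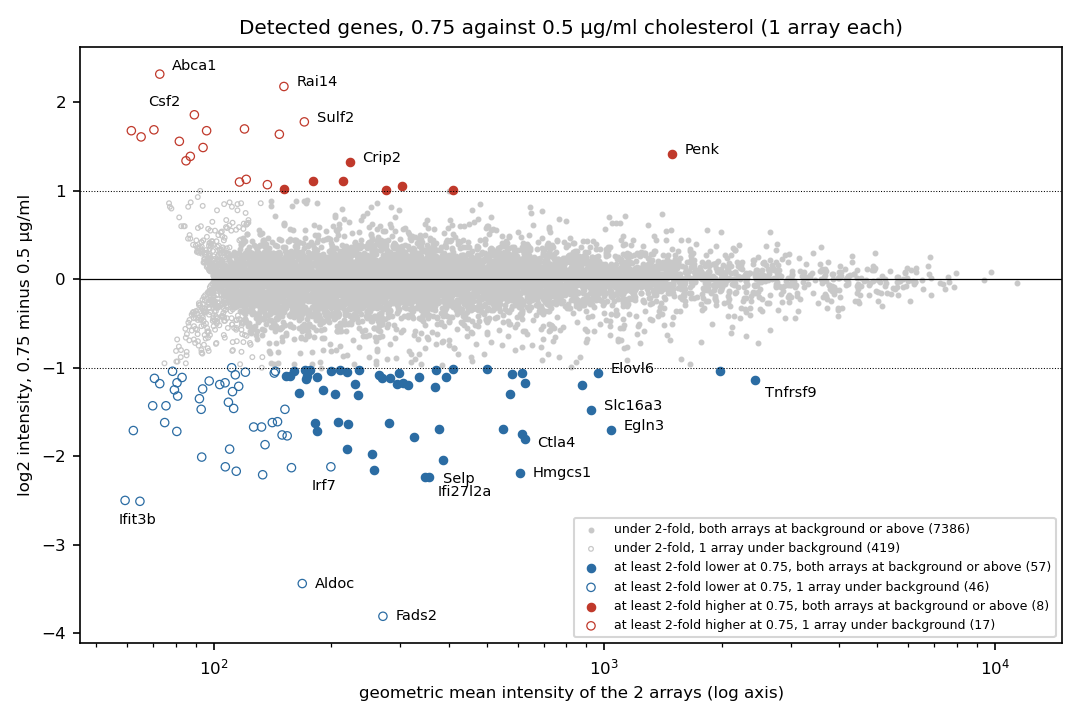
Log2 intensity at 0.75 minus 0.5 µg/ml (y) against the geometric mean intensity of both arrays (x, log axis) for each of the 7933 detected genes, 1 array per dose. Filled points were at or above background on both arrays and open points on 1 array only; blue points are the 103 genes at least 2-fold lower, red points the 25 at least 2-fold higher, and Fads2 and Aldoc lie lowest.

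The enzymes of cholesterol synthesis were lower at 0.75 than at 0.5 µg/ml almost throughout the pathway. Of 7 detected mevalonate pathway genes, 6 were lower and 4 at least 2-fold lower, with a median of -1.39. Of the 10 that carry squalene to cholesterol, 9 were lower and 6 at least 2-fold lower, with a median of -1.05, beside -0.01 over all detected genes. All 7 and 10 measured members were detected, 2 and 3 of them on the 0.5 µg/ml array alone. With dim values raised to background the medians were -0.96 and -1.05. Over all detected genes 51.5% were lower and 1.30% at least 2-fold lower as measured.

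Hmgcs1, the synthase that makes HMG-CoA at the entry to the pathway, was at 1295 and 285, 4.55-fold lower. Mvk and Pmvk, the kinases that phosphorylate mevalonate in turn, were at 177 and 67.3 (at least 1.76-fold lower) and at 159.5 and 103 (1.55-fold lower). Mvd, the decarboxylase that yields isopentenyl diphosphate, was at 319 and 164, 1.95-fold lower. Idi1, which isomerises that unit, was at 332 and 101, 3.28-fold lower. All 5 of these early enzymes were below their 0.5 µg/ml level. Fdps, farnesyl diphosphate synthase, was at 287 and 62.1, at least 2.85-fold lower. Ggps1, which draws the same intermediates towards geranylgeranyl groups for protein prenylation, was at 357 and 419, 1.17-fold higher. Ggps1, on a side branch, was the 1 mevalonate list member that was not lower.

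Fdft1, squalene synthase, was at 937 and 417, 2.25-fold lower. Sqle, squalene epoxidase, a rate-limiting step, was at 247 and 80.7, at least 2.46-fold lower. Lss, lanosterol synthase, was at 779 and 449, 1.74-fold lower. These 3 enzymes lead through squalene to the first sterol, and each was lower. Among the demethylating enzymes, Cyp51 was at 678 and 210.4, 3.23-fold lower. Msmo1, the sterol C4-methyl oxidase, was at 237 and 74.3, at least 2.35-fold lower. Nsdhl and Hsd17b7, which complete C4 demethylation, were at 890.3 and 428 (2.08-fold lower) and at 206 and 100.3 (at least 2.05-fold lower). Sc5d and Dhcr7, which place and remove the last ring double bonds, were at 948 and 506 (1.87-fold lower) and 619 and 337 (1.84-fold lower). Ebp, the sterol isomerase, was at 521 and 561, 1.08-fold higher. Ebp was the 1 enzyme of this stretch that was not lower.

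The regulators fell on both sides of equality. Insig1, the SREBP-retaining protein that is itself an SREBP target, was at 605 and 176, 3.43-fold lower. Srebf2, which encodes SREBP-2, was at 2304 and 1188, 1.94-fold lower. Stard4, a soluble sterol carrier, was at 478 and 207, 2.3-fold lower. Scap, the SREBP escort, was at 789 and 931, 1.18-fold higher. Mbtps1, the first of the SREBP-cutting proteases, was at 394 and 414, 1.05-fold higher. Mylip, the LXR-induced ubiquitin ligase that removes lipoprotein receptors, was at 134 and 172, 1.28-fold higher. Of 6 detected members, 3 were higher and 3 lower.

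Promoter sequences are shown for 8 genes of the lists that differed, to set the letters beside the values. Each is the 250 bases before the RefSeq gene start in GRCm38.p6, 5′ to 3′ on the gene's strand, with the motif in capitals. Motifs were sought on both strands in every detected gene with such a window, 6539 of 7933. Hmgcs1 (chr13:119690101-119690350 on the plus strand) is shown for its sterol regulatory element, TCACNCCAC, and Cyp51 (chr5:4104698-4104947 on the minus strand) for its CCAAT box, the letters bound by NF-Y, a partner of SREBP at sterol genes.
Hmgcs1: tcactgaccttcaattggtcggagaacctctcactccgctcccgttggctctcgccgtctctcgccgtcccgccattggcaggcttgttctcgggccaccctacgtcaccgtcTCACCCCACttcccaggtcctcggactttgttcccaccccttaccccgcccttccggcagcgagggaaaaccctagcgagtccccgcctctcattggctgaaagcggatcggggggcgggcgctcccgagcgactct
Cyp51: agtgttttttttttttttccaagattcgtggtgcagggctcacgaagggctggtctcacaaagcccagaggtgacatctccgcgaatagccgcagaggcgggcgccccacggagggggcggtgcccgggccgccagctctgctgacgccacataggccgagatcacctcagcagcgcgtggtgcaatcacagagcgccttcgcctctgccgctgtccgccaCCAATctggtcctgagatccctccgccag
The Hmgcs1 match begins 137 bases and the Cyp51 match 29 bases before the start. CCAAT occurred in 14 of 14 (100%) sterol enzymes with a window, in 2700 of 6539 (41.3%) detected genes and in 33 of 77 (42.9%) genes at least 2-fold lower. The element TCACNCCAC occurred in 1 of 14 (7.14%) sterol enzymes, Hmgcs1, and in 81 of 6539 (1.24%) detected genes. It also occurred in 3 of 77 (3.9%) genes at least 2-fold lower and in 2 of 18 (11.1%) glycolysis genes. With 1 sterol enzyme matched, its share does not set these enzymes apart. These matches describe letters, not binding.

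**Figure D2:**
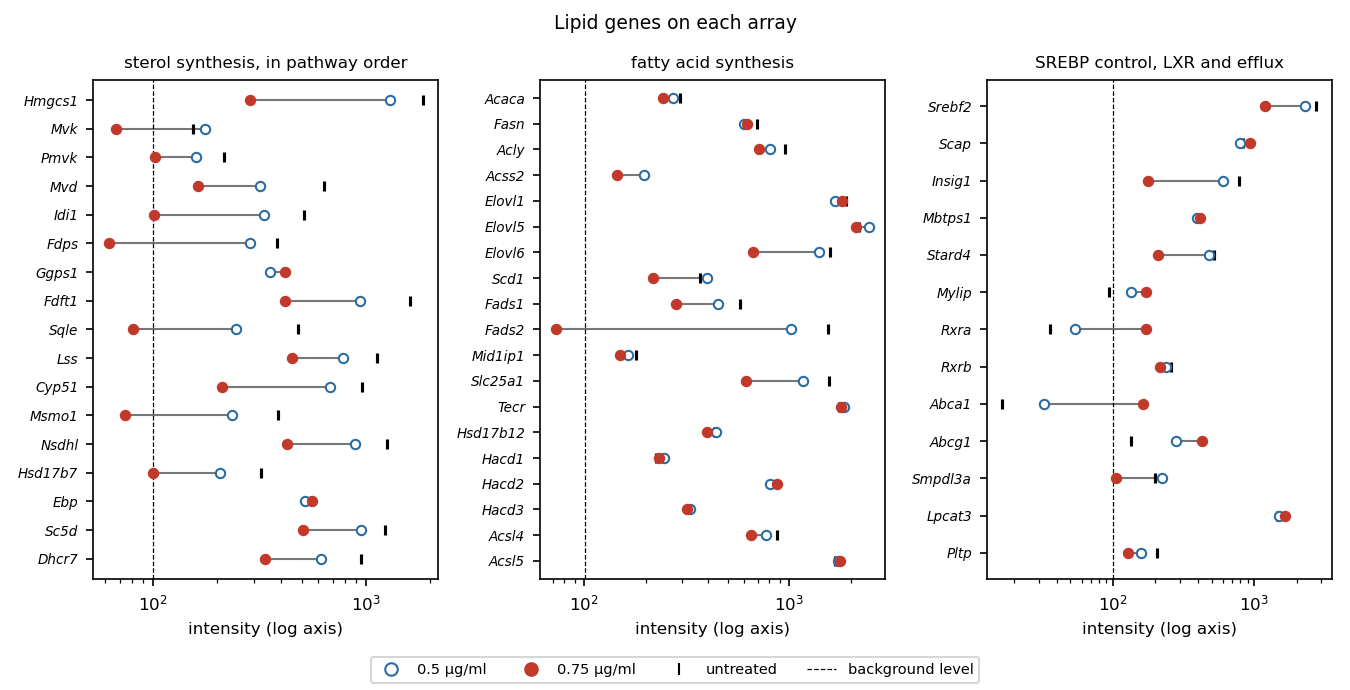
Intensity (x, log axis) of each detected sterol synthesis, fatty acid synthesis, SREBP control and LXR gene (y) at 0.5 µg/ml (open blue), 0.75 µg/ml (red) and untreated (black bar), 1 array each, with the background level dashed. In the left panel 15 of 17 sterol enzymes have the red point to the left of the blue one, Ggps1 and Ebp being the exceptions; Abca1 and Rxra in the right panel lie the other way.

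The LXR and efflux genes did not move as 1 group. Abca1, the pump that loads cholesterol onto apolipoprotein A-I, was at 32.6 and 162, at least 1.62-fold higher. Its measured pair lay under and over background, so the bound rather than the ratio is given. Abcg1, the pump that passes cholesterol to lipoprotein particles, was at 280.4 and 431, 1.54-fold higher. Rxra, the RXR partner of LXR, was at 53.5 and 172, at least 1.71-fold higher. Lpcat3, which builds polyunsaturated phospholipids, was at 1498 and 1665, 1.11-fold higher. Against these, Smpdl3a, a lipid phosphodiesterase and a known LXR target in macrophages, was at 223 and 105, 2.13-fold lower. Pltp, phospholipid transfer protein, was at 157 and 129, 1.22-fold lower. Of 8 detected members of 13 measured, 5 were higher and 3 lower. Abca1 and Rxra were detected on the 0.75 µg/ml array alone; the other 6 were 3 higher and 3 lower, with a median of 0.01. Nr1h3, which encodes LXR alpha, was not detected (45.6 and 37.5). The exact letters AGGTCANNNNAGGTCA of the LXR response element were found in none of the 6539 windows (0%). That search therefore cannot set LXR genes apart from others. Sites with other letters or farther from the start were not sought.

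Storage and lysosomal genes lay near all genes. Hilpda, a lipid droplet protein that inhibits triglyceride lipase, was at 385 and 182, 2.11-fold lower. Plin2, a coat protein of lipid droplets, was at 401 and 348 (1.15-fold lower), and Plin3 at 171 and 134 (1.27-fold lower). Of 7 detected esterification and storage genes 1 was at least 2-fold lower, and the median was -0.11. Npc2, the lysosomal protein that hands cholesterol to NPC1, was at 442 and 232, 1.91-fold lower. Npc1 itself was at 243 and 206 (1.18-fold lower). The 18 detected lysosomal genes had a median of -0.07, and none differed 2-fold.

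In fatty acid synthesis the widest differences were at genes for desaturation, elongation and citrate export. Fads2, the delta-6 desaturase of polyunsaturated fatty acids, was at 1016 and 72.4, at least 10.1-fold lower. This was the largest difference in either direction among the detected genes, and the raw pair spanned -3.81 on the log2 scale. Fads1, the delta-5 desaturase, was at 447 and 281, 1.59-fold lower. Scd1, the delta-9 desaturase that makes oleate, was at 399 and 215, 1.85-fold lower. Elovl6, which elongates palmitate, was at 1393 and 667, 2.09-fold lower. Slc25a1, the mitochondrial citrate exporter, was at 1167 and 614, 1.9-fold lower. The core enzymes stayed close: Fasn, fatty acid synthase, was at 601 and 622 (1.04-fold higher), Acaca, acetyl-CoA carboxylase, at 271 and 243 (1.11-fold lower) and Acly, ATP citrate lyase, at 808 and 714 (1.13-fold lower). Of 19 detected members 15 were lower and 2 at least 2-fold lower, with a median of -0.16. Over all detected genes these shares were 51.5% and 1.30%. Among 15 fatty acid oxidation genes 9 were higher and 5 lower, with none 2-fold; Cpt1a, which admits fatty acids to mitochondria, was at 457 and 488.

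Hypoxia-inducible genes are the targets that HIF-1 turns on when oxygen or prolyl hydroxylase activity is low. At 0.75 µg/ml 23 of 24 detected members were lower. At least 2-fold lower were 5 as measured and 3 with dim values raised to background. Over all detected genes 51.5% were lower, with 1.30% at least 2-fold lower as measured and 0.945% with dim values raised. The list's median was -0.72, and -0.65 over the 22 members above background on both arrays. Vegfa, the angiogenic growth factor, was at 187 and 46.4, at least 1.86-fold lower. Ndrg1, a stress-induced growth regulator, was at 504 and 128, 3.94-fold lower. Egln3, a prolyl hydroxylase that marks HIF-1 alpha for destruction, was at 1872 and 577, 3.24-fold lower. Ak4, a mitochondrial adenylate kinase, was at 269.5 and 126, 2.14-fold lower. Bnip3, a mitophagy receptor, was at 1156 and 581, 1.99-fold lower. Hif1a, which encodes the HIF-1 alpha subunit, was at 2607 and 1704, 1.53-fold lower. Pdk1, the kinase that closes pyruvate dehydrogenase, was at 802 and 473, 1.7-fold lower. Wsb1, a ubiquitin ligase component, was the 1 detected member that was higher, at 272 and 299.9.

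In glycolysis 16 of 19 detected genes were lower, with a median of -0.27, and 3 were at least 2-fold lower. Over all detected genes 51.5% were lower and 1.30% at least 2-fold lower. Aldoc, the aldolase C isoform, was at 555 and 51.2, at least 5.52-fold lower. Slc2a3, the glucose carrier GLUT3, was at 989.6 and 308, 3.22-fold lower. Slc16a3, the lactate exporter MCT4, was at 1543 and 554, 2.79-fold lower. Slc2a1, the glucose carrier GLUT1, was at 2239 and 1586, 1.41-fold lower. Hk2, hexokinase 2, was at 581 and 425, 1.37-fold lower. Other enzymes were closer to equal: Ldha, lactate dehydrogenase A, was at 3941 and 3651 (1.08-fold lower), Pkm, pyruvate kinase, at 5743 and 5119.8 (1.12-fold lower) and Gapdh at 6808 and 6922 (1.02-fold higher). Ldhb, the lactate dehydrogenase B subunit, was at 135 and 181, 1.35-fold higher. The glycogen enzymes Pygm, Pygl and Gbe1, which break down and branch glycogen and were named after their values were seen, were at 242 and 53.9 (at least 2.41-fold lower), 124 and 46 (at least 1.23-fold lower) and 112 and 54.8 (at least 1.12-fold lower).

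Egln3 (chr12:54203875-54204124 on the minus strand) and Bnip3 (chr7:138909507-138909756 on the minus strand) are shown for the core of the hypoxia response element, ACGTG, in capitals.
Egln3: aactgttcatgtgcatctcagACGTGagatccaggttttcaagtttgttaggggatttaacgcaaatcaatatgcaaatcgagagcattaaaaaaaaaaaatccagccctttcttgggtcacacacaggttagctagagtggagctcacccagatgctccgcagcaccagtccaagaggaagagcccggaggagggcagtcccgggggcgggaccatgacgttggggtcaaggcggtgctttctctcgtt
Bnip3: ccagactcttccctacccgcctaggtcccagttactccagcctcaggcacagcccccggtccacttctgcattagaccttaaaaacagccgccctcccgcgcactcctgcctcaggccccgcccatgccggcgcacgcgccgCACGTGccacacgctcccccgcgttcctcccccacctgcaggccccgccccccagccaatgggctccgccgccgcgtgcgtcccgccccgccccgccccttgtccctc
The Egln3 match begins 229 bases before the start, and in Bnip3 the matches on the 2 strands, 108 and 107 bases before it, overlap. The core occurred in 15 of 20 (75%) hypoxia-inducible genes with a window and 10 of 18 (55.6%) glycolysis genes, against 1754 of 6539 (26.8%) detected genes and 18 of 77 (23.4%) genes at least 2-fold lower. It also occurred in 6 of 16 (37.5%) genes at least 2-fold higher and in 17 of 35 (48.6%) endoplasmic reticulum chaperone genes. Such a short motif is frequent, and a match is no evidence of binding.

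Interferon-stimulated genes, the antiviral set that type I interferon turns on, were lower at 0.75 µg/ml in 37 of 38 detected members, 18 of them at least 2-fold as measured and 14 with dim values raised to background. Their median was -0.92, and -0.71 with dim values raised. The 27 members above background on both arrays were all lower, with a median of -0.86. Of 47 measured members, 10 were detected on the 0.5 µg/ml array alone and 1 on the other alone. Over all detected genes 51.5% were lower, with 1.30% at least 2-fold lower as measured and 0.945% with dim values raised.

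Irf7, the transcription factor that amplifies interferon production, was at 416 and 95.7, at least 4.14-fold lower. Ifi27l2a, an interferon-induced mitochondrial and nuclear-envelope protein, was at 758 and 160.2, 4.73-fold lower. Usp18, which takes ISG15 off proteins and damps the interferon receptor, was at 428 and 113, 3.78-fold lower. Xaf1, a pro-apoptotic XIAP partner, was at 365 and 119, 3.06-fold lower. These 4 differed over 3-fold. Ifit3, an RNA-binding effector of the IFIT family, was at 214 and 56.4, at least 2.13-fold lower. Dhx58, the RNA helicase LGP2, was at 226 and 70.8, at least 2.25-fold lower. Oas3, an oligoadenylate synthetase that activates RNase L, was at 399 and 183, 2.18-fold lower. Ifih1, the RNA sensor MDA5, was at 430.4 and 206, 2.09-fold lower. Stat2, the interferon signal transducer, was at 581 and 289.5, 2.01-fold lower. Bst2, tetherin, was at 1587 and 964, 1.65-fold lower. The smallest differences among the lower members were at Ifi35 (475 and 455, 1.05-fold lower) and Tor3a (275 and 241, 1.14-fold lower). Mx1, an antiviral GTPase, was the 1 member that was higher, at 89.8 and 105, on either side of background.

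Some of the genes past 2-fold are neighbours on a chromosome. In the gene order of GRCm38.p6, among detected genes, 13 of the 103 genes at least 2-fold lower stood beside another such gene, in 5 runs, and 3 of the 25 at least 2-fold higher did so, in 1 run. In that order 7931 detected genes could be placed. Whether called genes stood together more often than other genes was not tested. The run of higher genes was Btbd35f19, Btbd35f5 and Btbd35f12. The runs of lower genes were Ifi213, Ifi209 and Ifi208; Ifit2, Ifit3, Ifit1bl1 and Ifit3b; Ifi27l2a and Ifi27; Phf11a and Phf11b; and Dtx1 and Oas3. The Ifi, Ifit and Oas genes are interferon-induced, and Dtx1 is a Notch pathway ubiquitin ligase. The runs rest on differences as measured, and several members were under background on 1 array. The bounds were 1.03-fold lower for Dtx1, 1.4 for Ifit1bl1, 1.54 for Ifit3b, 1.59 for Ifit2 and 1.86 for Phf11a. For the 3 Btbd35f genes they were 1.13- to 1.4-fold higher. By these bounds only the runs of Ifi213, Ifi209 and Ifi208 and of Ifi27l2a and Ifi27 stay at 2-fold throughout. Ifi213, a PYHIN family DNA sensor relative, was at 543 and 121, 4.47-fold lower. Ifi209, of the same family, was at 784 and 190.4, 4.12-fold lower. Ifi208, also of that family, was at 259 and 70.7, at least 2.58-fold lower. Members of these families resemble each other, and probes that bind several of them cannot be told apart here.

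Ifit3 (chr19:34583279-34583528 on the plus strand), Ifi213 (chr1:173599273-173599522 on the minus strand) and Ifi208 (chr1:173673415-173673664 on the plus strand) are shown for the core of the interferon-stimulated response element, GAAANNGAAA, in capitals.
Ifit3: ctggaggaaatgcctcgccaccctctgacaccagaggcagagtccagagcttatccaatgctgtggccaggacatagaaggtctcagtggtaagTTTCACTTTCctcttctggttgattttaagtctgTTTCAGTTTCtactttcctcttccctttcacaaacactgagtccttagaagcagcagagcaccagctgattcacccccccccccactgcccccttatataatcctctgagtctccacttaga
Ifi213: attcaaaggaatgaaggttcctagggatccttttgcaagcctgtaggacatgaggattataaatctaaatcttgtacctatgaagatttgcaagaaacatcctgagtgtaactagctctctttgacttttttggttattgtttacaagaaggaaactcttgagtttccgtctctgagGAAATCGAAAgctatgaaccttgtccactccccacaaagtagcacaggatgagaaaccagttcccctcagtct
Ifi208: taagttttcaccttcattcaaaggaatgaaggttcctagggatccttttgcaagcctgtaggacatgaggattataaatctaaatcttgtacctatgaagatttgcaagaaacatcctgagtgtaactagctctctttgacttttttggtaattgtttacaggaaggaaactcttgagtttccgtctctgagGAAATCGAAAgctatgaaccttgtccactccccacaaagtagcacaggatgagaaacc
Ifit3 has 2 matches, 156 and 122 bases before the start, Ifi213 has 1 at 73 bases and Ifi208 has 1 at 58 bases. The Ifi213 and Ifi208 windows match at 233 of 235 bases when set 15 bases apart. The core occurred in 8 of 28 (28.6%) interferon-stimulated genes with a window, in 14 of 77 (18.2%) genes at least 2-fold lower, in 0 of 16 (0%) genes at least 2-fold higher and in 214 of 6539 (3.27%) detected genes. It also occurred in 2 of 14 (14.3%) sterol enzymes, Ggps1 and Ebp, which were not lower, and in 1 of 6 (16.7%) class II genes. Near-copies such as Ifi213 and Ifi208 count separately among the lower genes. A match is no evidence of binding.

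Genes on the interferon-gamma side differed by smaller amounts. The 15 detected gamma-inducible GTPases and regulators had a median of -0.22, with 13 lower and none 2-fold. Over all detected genes 51.5% were lower, with a median of -0.01. Gbp7, a guanylate-binding protein, was at 1875 and 1163, 1.61-fold lower. Irf1, the factor that interferon gamma induces first, was at 997 and 856, 1.16-fold lower. Ifng, interferon gamma itself, was at 346 and 294 (1.18-fold lower). Among receptors and signal transducers, Ifngr2, the second chain of the interferon gamma receptor, was at 252 and 144, 1.74-fold lower. Ifngr1, its first chain, was at 1509 and 978, 1.54-fold lower. Ifnar2, a chain of the type I interferon receptor, was at 585 and 426, 1.37-fold lower. Ifnar1, the partner chain, was at 342 and 323 (1.06-fold lower). The 20 detected interferon and JAK-STAT genes had a median of -0.11, and none differed 2-fold.

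**Figure D3:**
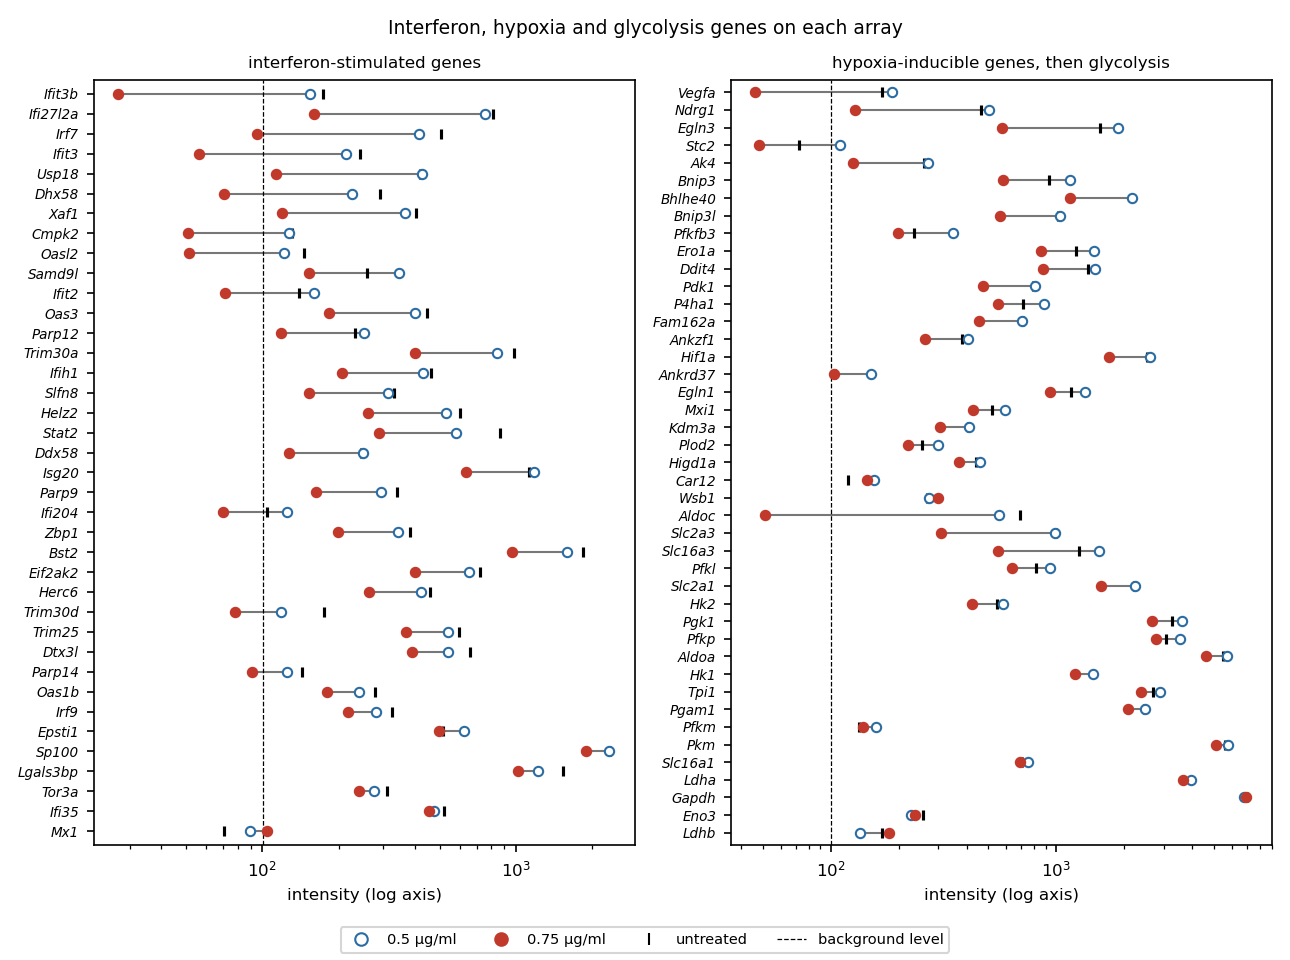
Intensity (x, log axis) of each detected interferon-stimulated gene (left), and hypoxia-inducible and glycolysis gene (right), at 0.5 µg/ml (open blue), 0.75 µg/ml (red) and untreated (black bar), 1 array each, ordered by difference within each list, with the background level dashed. Red lies left of blue for 37 of 38 interferon-stimulated and 23 of 24 hypoxia-inducible genes; Mx1 and Wsb1 are the exceptions.

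Genes for antigen presentation were mostly lower, those of class I by smaller amounts than those of class II. Of 22 detected class I genes 19 were lower, with a median of -0.23 and none 2-fold. H2-K1, a classical class I heavy chain, was at 4444 and 3556 (1.25-fold lower), and B2m, its light chain, at 11575 and 11272 (1.03-fold lower). H2-T22, a non-classical class I molecule, was at 462 and 300.0, 1.54-fold lower. Class I genes are near-identical copies, so probes may be shared between them. 7 of 11 class II genes were detected and all 7 were lower, with a median of -0.58. Of these, 5 were above background on both arrays. At least 2-fold lower were 2 of the 7, beside 1.30% of all detected genes, of which 51.5% were lower. H2-Ab1, a class II beta chain, was at 285 and 83.4, at least 2.84-fold lower. H2-DMb2, a chain of the peptide-loading factor, was at 257 and 106, 2.43-fold lower. Class II genes mark B cells, macrophages and dendritic cells. Of the 8 measured macrophage, dendritic cell and monocyte markers none was detected (summed intensity 155 and 153), and of 7 B cell markers Cd79b alone was, at 100.3 and 105 (list sum 258 and 247).

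The other marker lists check the label. All 7 measured CD8 T cell markers were detected on both arrays. Cd8a and Cd8b1, the co-receptor chains, were at 4164 and 3313 (1.26-fold lower) and 2621 and 2030.0 (1.29-fold lower), and Cd3e, a chain of the antigen receptor complex, at 4650.1 and 4594. Of 3 measured CD4 T cell markers 1 was detected, Zbtb7b, at 234.8 and 209.3 (1.12-fold lower). Cd4 itself was not detected (39.4 and 35.7). Of 4 NK and gamma-delta T cell, 7 neutrophil and mast cell and 4 erythroid and platelet markers, none was detected. In such bulk RNA, fewer cells of a type and less RNA per cell cannot be told apart.

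Among inhibitory receptors, a pair of genes stood apart from the rest. Ctla4, which competes with CD28 for its ligands, was at 1166 and 335, 3.48-fold lower. Lag3, an inhibitory receptor for class II molecules, was at 294 and 123, 2.39-fold lower. The other 9 of 11 detected members were within 2-fold: Tigit was at 216 and 172 (1.26-fold lower), Pdcd1, which encodes PD-1, at 160.5 and 154 (1.04-fold lower) and Cd160 at 293 and 414 (1.41-fold higher). Havcr2, which encodes TIM-3, was not detected (39.5 and 75.5). The list's median was -0.16, and 2 of 11 were at least 2-fold lower, beside 1.30% of all detected genes.

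The transcription factors of effector cells stayed within 2-fold, all 18 detected. Tox, a factor known from exhausted cells, was at 539.8 and 314, 1.72-fold lower. Eomes, a T-box factor, was at 629.6 and 806, 1.28-fold higher. Tbx21, which encodes T-bet, the defining factor of Tc1 cells, was at 216 and 227. Irf4, a factor scaled by antigen receptor signal, was at 778 and 1046, 1.35-fold higher. Bhlhe40, a repressor of IL-10 that HIF-1 also induces, was at 2157 and 1152, 1.87-fold lower. Among killing genes, Gzmb, granzyme B, was at 7741 and 8136 (1.05-fold higher). Prf1, perforin, was at 188 and 93.9, at least 1.87-fold lower. Serpinb6b, a protease inhibitor, was at 1323 and 578, 2.29-fold lower. Serpinb9, the granzyme B inhibitor, was at 508 and 315, 1.61-fold lower. Fasl, the ligand of the death receptor FAS, was at 210.4 and 146, 1.45-fold lower. Of 11 detected members 8 were lower, with a median of -0.10, beside 51.5% lower over all detected genes.

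Cytokine genes leaned the other way: 13 of 17 detected were higher at 0.75 µg/ml, with a median of 0.30. Over all detected genes 3694 of 7933 were higher, with a median of -0.01. The 4 members detected on the 0.75 µg/ml array alone could only be higher; of the 13 above background on both arrays 9 were higher and 4 lower, with a median of 0.19. Csf2, which encodes GM-CSF, was at 46.8 and 170.1, at least 1.69-fold higher. Csf1, which encodes M-CSF, was at 65.3 and 131, at least 1.3-fold higher. Ccl3, a chemokine for myeloid and T cells, was at 79.3 and 143, at least 1.42-fold higher. Il24, a cytokine of the IL-10 family, was at 1049.5 and 1598, 1.52-fold higher. Lif, leukaemia inhibitory factor, was at 1493 and 1974, 1.32-fold higher. Lta, lymphotoxin alpha, was at 1927 and 2422, 1.26-fold higher. Tnf was at 962 and 1065 (1.11-fold higher). Ccl5, a chemokine of memory and effector CD8 T cells, was at 661 and 367, 1.8-fold lower. The first 3 were under background at 0.5 µg/ml. Il2 and Il9 were not detected (11.3 and 12.7, and 23.3 and 32.2).

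Of the receptors for cytokines and co-stimulation, 1 in each list was at least 2-fold lower. Il12rb2, the signalling chain of the IL-12 receptor, was at 2846 and 1382, 2.06-fold lower. Tgfbr2, a TGF-beta receptor chain, was at 506 and 363, 1.39-fold lower. Il2ra, the activation-induced IL-2 receptor chain, was at 893 and 1017 (1.14-fold higher). Tnfrsf9, the co-stimulatory receptor 4-1BB, was at 3597 and 1636, 2.2-fold lower. Tnfrsf4, the co-stimulatory receptor OX40, was at 1806 and 1164, 1.55-fold lower. Tnfrsf8, the receptor CD30, was at 880.3 and 1452, 1.65-fold higher. Cd226, a co-stimulatory nectin receptor, was at 435 and 641, 1.47-fold higher. Both lists had medians near that of all genes, -0.14 and -0.07.

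**Figure D4:**
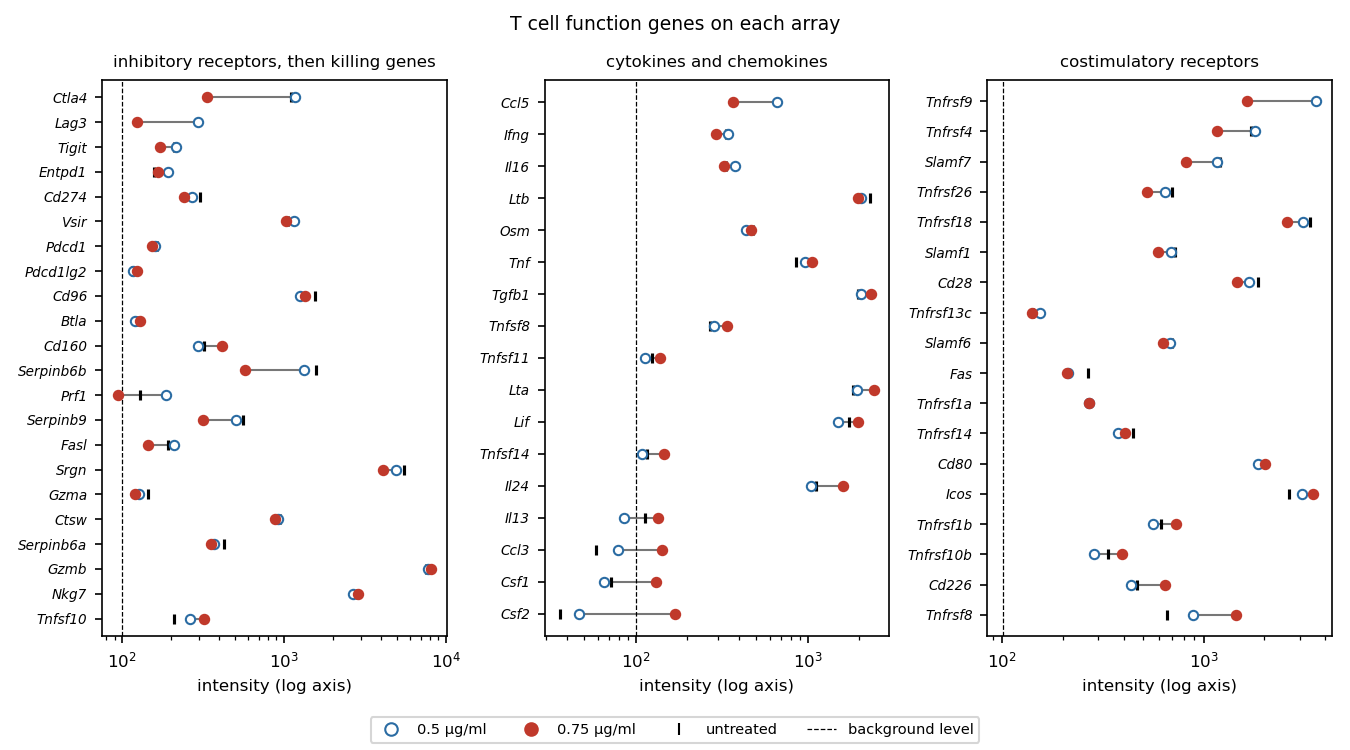
Intensity (x, log axis) of each detected inhibitory receptor and killing gene (left), cytokine gene (middle) and costimulatory receptor (right) at 0.5 µg/ml (open blue), 0.75 µg/ml (red) and untreated (black bar), 1 array each, ordered by difference, with the background level dashed. Ctla4, Lag3 and Tnfrsf9 have the red point well left of the blue one, and Csf2 well right of it.

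Genes of resting and memory T cells were lower in 18 of 23 detected members, with a median of -0.28. Of the 20 above background on both arrays 15 were lower, with a median of -0.27. Over all detected genes 51.5% were lower, with a median of -0.01. Klf2, the quiescence factor that drives S1pr1 and L-selectin, was at 223 and 51.4, at least 2.22-fold lower. Klf3, a related repressor, was at 146 and 44.3, at least 1.45-fold lower. Txk, a TEC family kinase, was at 318 and 103, 3.07-fold lower. Pik3ip1, an inhibitor of PI3 kinase, was at 254 and 83.4, at least 2.53-fold lower. Others were close: Il7r, the IL-7 receptor chain, was at 1024 and 845 (1.21-fold lower) and Lef1 at 1533 and 1273 (1.2-fold lower). For adhesion and homing, Selp, P-selectin, was at 768 and 164, 4.68-fold lower. Itga4, an integrin alpha chain, was at 475 and 244, 1.95-fold lower. Cd44, the hyaluronan receptor of activated cells, was at 1217 and 1799.6, 1.48-fold higher. Cxcr4, the CXCL12 receptor, was at 458 and 203, 2.26-fold lower. Cxcr3, the receptor for interferon-induced chemokines, was at 362 and 557, 1.54-fold higher. Gpr174, a lysophosphatidylserine receptor, was at 160.3 and 262, 1.63-fold higher. The adhesion and migration medians were -0.19 and -0.15. The 8 detected GIMAP GTPases, survival factors of lymphocytes, had a median of -0.33, led by Gimap7 at 291 and 159.

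The signalling machinery of the antigen receptor was near equal: 35 genes, a median of -0.04, and Txk alone 2-fold. Zap70, the kinase recruited to the receptor, was at 583 and 580.3, and Cd5, a damper of its signal, at 622 and 826 (1.33-fold higher). Among 34 activation and immediate-early genes the median was -0.10. Ier3, an immediate-early survival gene, was at 321 and 130.3, 2.47-fold lower. Cd69, the early activation antigen, was at 1284 and 830.2, 1.55-fold lower. Egr2, an early growth response factor, was at 79.5 and 170.5, at least 1.69-fold higher. Myc was at 5703 and 5306. In the NF-kappaB list the median was -0.05; Tnfaip3, which encodes the feedback inhibitor A20, was at 565 and 314, 1.8-fold lower. Rela was at 1337 and 1564 (1.17-fold higher). The 16 detected SUMO genes had a median of -0.04, and none differed 2-fold.

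Endoplasmic reticulum chaperones leaned upward by small amounts: 29 of 44 detected were higher, with a median of 0.08 and none 2-fold. Over all detected genes 3694 of 7933 were higher, with a median of -0.01. Creld2, an ER stress-induced disulfide isomerase, was at 250.2 and 371, 1.48-fold higher. Sdf2l1, an ER co-chaperone, was at 603 and 879, 1.46-fold higher. Hyou1, an ER chaperone of the HSP110 family, was at 1016 and 1389.6, 1.37-fold higher. Hspa5, the chaperone BiP, was at 3939.5 and 4709, 1.2-fold higher. Xbp1, the factor spliced under ER stress, was at 2443 and 2644. Atf4 and Ddit3, which encodes CHOP, were at 1627 and 1575 and 304 and 282, and their 21 detected targets had a median of -0.07. Creld2 (chr15:88819396-88819645 on the plus strand) is shown for its ER stress element, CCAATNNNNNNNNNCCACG, whose first letters are also a CCAAT box.
Creld2: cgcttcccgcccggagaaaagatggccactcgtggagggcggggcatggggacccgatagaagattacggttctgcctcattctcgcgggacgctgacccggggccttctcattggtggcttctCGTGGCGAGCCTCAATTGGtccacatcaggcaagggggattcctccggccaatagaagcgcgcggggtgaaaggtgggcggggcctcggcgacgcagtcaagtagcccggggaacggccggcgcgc
The match begins 126 bases before the start. The element occurred in 8 of 35 (22.9%) ER genes with a window and in 11 of 6539 (0.168%) detected genes.

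Of the 25 detected p53 targets 15 were higher and 9 lower, with a median of 0.28 (0.27 over those above background on both arrays). Over all detected genes 3694 of 7933 were higher, with a median of -0.01. The lowest p53 target was at -0.47, and the targets named here were all among the higher ones. Perp, a desmosomal and pro-apoptotic p53 target, was at 210.0 and 437, 2.08-fold higher. Eda2r, an ectodysplasin receptor, was at 39.1 and 126, at least 1.26-fold higher. Phlda3, an inhibitor of AKT, was at 94.7 and 199, at least 1.98-fold higher. Zmat3, an RNA-binding p53 target, was at 402 and 653, 1.62-fold higher. Cdkn1a, the cyclin kinase inhibitor p21, was at 3157 and 4068 (1.29-fold higher) and Mdm2, which degrades p53, at 1522 and 1874 (1.23-fold higher). Among redox genes, Gclm, a subunit of the enzyme that starts glutathione synthesis, was at 229 and 371, 1.62-fold higher. Txnrd1, thioredoxin reductase, was at 822 and 1222, 1.49-fold higher. The 22 detected NRF2 and ferroptosis genes had a median of 0.03. Hsph1, a heat shock protein of the HSP110 family, was at 501 and 844, 1.68-fold higher. In the BCL2 family, Bcl2l11, which encodes the killer BIM, was at 248 and 172, 1.45-fold lower. Bcl2l1, which encodes the protector BCL-XL, was at 722 and 961, 1.33-fold higher. That list's median was 0.00.

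Cell division genes were on balance level between the arrays. The 40 mitosis and 46 replication genes had medians of 0.00 and 0.00, and Mki67, the proliferation antigen Ki-67, was at 2156 and 2085. Small shifts were seen in large complexes, set here beside all detected genes, of which 3694 of 7933 were higher (median -0.01). Of 36 detected proteasome subunits 31 were higher, with a median of 0.12; Psmb9, an interferon-induced subunit, was the lowest at 1390.3 and 1047. Of 60 cytosolic ribosomal proteins 56 were lower, with a median of -0.13; Rpl22l1, a paralogue of Rpl22, was at 416 and 191, 2.17-fold lower. Of 74 mitochondrial ribosomal proteins 52 were higher (median 0.07), as were 49 of 79 respiratory chain subunits (median 0.04). With 1 array per dose, none of these shifts has an error between samples. The tRNA synthetase, heat shock, nutrient carrier, ABC transporter, Rab, histone and tubulin lists had medians of -0.08, 0.06, -0.05, 0.04, 0.00, 0.02 and -0.01. The 4 detected NK-type receptors and 6 galectins and transglutaminases had medians of -0.34 and -0.20; Tgm2, tissue transglutaminase, was at 276 and 81.2, at least 2.74-fold lower.

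**Figure D5:**
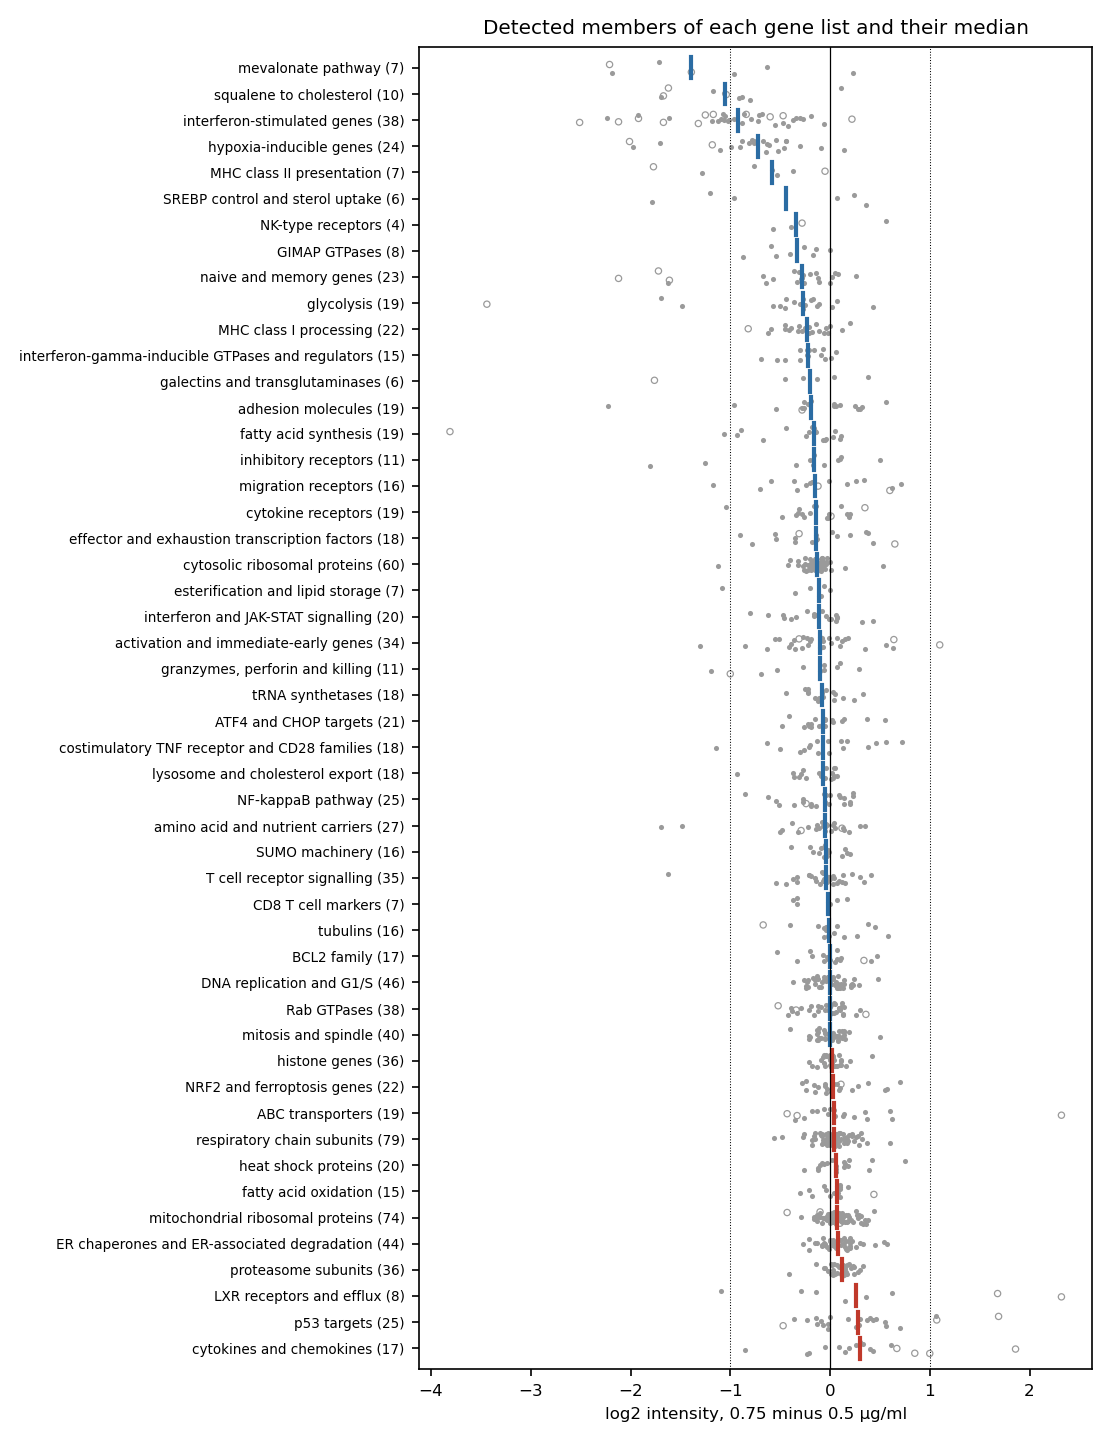
Log2 intensity at 0.75 minus 0.5 µg/ml (x) of each detected member (points; open where 1 array was under background) and their median (thick bar, blue under 0 and red over 0) for each gene list with 4 or more detected members (y; number detected in brackets). Mevalonate, squalene to cholesterol, interferon-stimulated and hypoxia-inducible genes have the lowest medians, from -1.39 to -0.72, and cytokines and chemokines the highest, 0.30; over members above background on both arrays p53 targets, at 0.27, lie above cytokines, at 0.19.

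Of the genes at least 2-fold higher, 18 of 25 were in none of the lists. Penk, the precursor of enkephalin peptides, was at 909 and 2436, 2.68-fold higher. Crip2, a LIM domain protein, was at 141 and 354, 2.51-fold higher. Asb2, a ubiquitin ligase component, was at 146 and 316, 2.16-fold higher. Gria3, an AMPA-type glutamate receptor subunit, was at 106 and 216, 2.03-fold higher. Qpctl, a glutaminyl cyclase of the Golgi, was at 195 and 391, 2.01-fold higher. These and Ak1, Akr1c13 and Perp were the 8 that were above background on both arrays. Rai14, an actin-binding ankyrin protein, was at 71.1 and 322, at least 3.2-fold higher. Sulf2, an extracellular heparan sulfatase, was at 92.1 and 316, at least 3.14-fold higher. Ly6g5b was at 83.5 and 259.7, at least 2.58-fold higher. Jcad, a junctional protein, was at 66.6 and 216, at least 2.15-fold higher. Gja1, the gap junction protein connexin 43, was at 47.6 and 140.1, at least 1.39-fold higher. Btbd35f5, Btbd35f12, Btbd35f18 and Btbd35f19, of a near-identical family, were each at least 1.1-fold higher and cannot be told apart by probes they may share.

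Of the genes at least 2-fold lower, 45 of 103 were in none of the lists. Nrn1, the neuritin gene, was at 1129 and 335, 3.37-fold lower. Arrb1, beta-arrestin 1, was at 331 and 75.5, at least 3.29-fold lower. Sdc4, the heparan sulfate proteoglycan syndecan-4, was at 113 and 34.4, at least 1.12-fold lower. Rasa3, a RAS and RAP GTPase-activating protein, was at 492 and 160.0, 3.08-fold lower. Plaur, the urokinase receptor, was at 131 and 42.8, at least 1.3-fold lower. Ndrg2, a relative of Ndrg1, was at 391 and 125, 3.12-fold lower. Tsc22d3, the glucocorticoid-induced protein GILZ, was at 147 and 57.6, at least 1.46-fold lower. Acp5, tartrate-resistant acid phosphatase, was at 708 and 352, 2.01-fold lower. Some of these were chosen after their values were seen. A further 17 probe sets without a gene name passed 2-fold upward and 8 downward, of 796 detected.

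The untreated array gives the level without added cholesterol, shown here for a choice of the genes named above, with no comparison drawn. Hmgcs1 was at 1848 there, Fads2 at 1548, Sqle at 482 and Insig1 at 779. Abca1 was at 16.5 and Abcg1 at 135. Irf7 was at 507, Ifi27l2a at 813, Egln3 at 1569.5 and Ctla4 at 1115. Penk was at 1314 and Csf2 at 36.4.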

How the data were processed

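Total RNA of each culture was labelled with biotin and hybridised to 1 microarray, per the labels. The authors deposited linear intensity values for 28846 probe sets on 3 arrays; the software, background correction and normalization behind them stay unknown because no label or header names them (not given in the sources used here), as does their effect on the folds. Genes were named through the platform annotation, which gave 19572 transcript probe sets 1 symbol each and left 2634 unnamed; all 19572 gene identifiers were found in RefSeq's GRCm38.p6. A gene with several probe sets (55 genes) took its brightest. A gene was detected when either dosed array reached the higher of their 95th percentiles of the negative controls. Differences are log2 of the intensity at 0.75 minus that at 0.5 µg/ml, computed with Python 3.11.15, numpy 2.4.6 and pandas 2.3.3 and tested on simulated data. With 1 array per dose no test was made. Promoters came from RefSeq (GRCm38.p6).

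The members and gene lists were chosen with earlier results of these data known. The naming rule took the 15 highest and 15 lowest genes above background on both arrays, and the 12 highest and 12 lowest bounds. It also took up to 5 of the most different members of each list and a fixed set of genes. Not every gene so taken is described above. Ckmt1, Ell2, Enc1, Fbxw9, Ly96, Tex15, Grk5, Neto2, Sntb2 and Tlr7 are among those left out. Predicted and clone-named genes, small RNAs, and receptor segments or olfactory receptors entered the counts only. Other genes, such as the remaining sterol enzymes and Gja1, were named after their values were seen. The alternatives changed the background percentile, the treatment of dim values, the scaling, the choice of probe set and the fold.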

Additional observations from a re-analysis of the deposited data

How the results depend on the processing

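The counts of 25 higher and 103 lower genes depended on how dim genes were treated. With dim values raised to background 12 genes were higher, with genes above background on both arrays only 8 and 57 were higher and lower, and with 32 added to each intensity 15 and 65. The 99th percentile of the negative controls as background gave 1 and 20, and the 90th gave 44 higher. Without a filter 76 were higher, and a 1.5-fold line gave 122 and 290. Quantile scaling gave 27 and 95, centring each array 27 and 98, the mean of probe sets 25 and 103, and a background taken over all 3 arrays, chosen after seeing the data, 25 and 103. More genes were lower than higher under each of these. With dim values raised to background the mevalonate median moved from -1.39 to -0.96, that of the interferon-stimulated genes from -0.92 to -0.71 and that of the hypoxia-inducible genes from -0.72 to -0.65. With 1 array per dose there is no replicate spread to hold such moves against. No paired analysis was possible because each dose has 1 array, and for the same reason no replicate could be left out. The number of arrays and the low signal over background of dim genes limit every fold.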
